A study of Mus musculus with 6 samples.

Results

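The SOX, KLF and ETS families of transcription factors were examined in RNA-seq of sorted cancer-associated fibroblasts from tumours of the mouse mammary gland. The members were all rows of the deposited count table whose symbol is Sox or Klf followed by a number, and the ETS genes Ehf, Elf1, Elf2, Elf3, Elf4, Ets1, Ets2, Etv6, Spdef, Fli1 and Gabpa. This gave 41 genes of the 18197 in the table, 15 of them SOX, 15 KLF and 11 ETS. Erg, an ETS factor of endothelium that the same rule names, was not analysed here. Of the 41 members, 38 had enough counts to be tested, and the SOX genes Sox15, Sox17 and Sox30 did not.

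The libraries fall into 2 groups of 3, one labelled mPGES-1 KO and one labelled WT, and both come from C57BL/6 mice whose mammary tumours were induced by the polyoma middle T oncogene (PyMT). Tumours were taken after 16 to 20 weeks and the fibroblasts were isolated by FACS. mPGES-1, encoded by Ptges, is the enzyme that makes the lipid mediator prostaglandin E2 (PGE2), and the series title asks which transcripts depend on it. The labels name no cell type for the deletion, so loss of mPGES-1 in tumour, stromal and immune cells cannot be told apart. Nor do they say whether each library stands for its own animal. The p-values therefore measure the spread among these libraries alone, and that spread may be technical.

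Ptges itself stood at 186, 137 and 129 CPM (read counts scaled for the size of each library) in the mPGES-1 KO-labelled libraries and at 31.9, 19.2 and 27.9 CPM in the WT-labelled ones. The mPGES-1 KO-labelled libraries were all above the WT-labelled ones, the direction opposite to loss of the transcript (log2 fold change 2.51 ± 0.31 SE, edgeR adjusted p = 0.0171). Since each gene has a single total over all its exons, deleted or not, Ptges checks neither the deletion nor the labels. Every direction below is drawn from the labels. Total counts ran from 23013498 to 43648450 per library. In all, 16543 genes were tested and 456 called at the 0.05 level, 198 with higher and 258 with lower counts under the mPGES-1 KO label. Fibroblast genes were present, with Dcn, a matrix proteoglycan, at 5805 ± 2817 and 4320 ± 2793 CPM (mean ± SD, n = 3 libraries each) under the labels mPGES-1 KO and WT. Of the 11 fibroblast genes listed, 4 had a positive and 7 a negative log2 fold change, and 1 rose and 1 fell. Thy1, a surface glycoprotein that pericytes and leukocytes also carry, fell to 22.9 ± 11.8 CPM under the mPGES-1 KO label, against 213 ± 54.8 CPM under WT (log2 fold change -3.22 ± 0.44, edgeR adjusted p = 0.0184), and lost its call without mPGES-1 KO replicate 2 (0.0926), mPGES-1 KO replicate 3 (0.0814) or WT replicate 2 (0.0801). Dpp4, a surface peptidase, rose to 79.0 ± 45.9 CPM, against 9.24 ± 5.11 CPM under WT (3.09 ± 0.64, adjusted p = 0.04997), and lost its call when any 1 library was left out (0.0731 without WT replicate 1 to 0.139 without mPGES-1 KO replicate 2). Col1a1, a chain of type I collagen, stood at 688 ± 453 and 3897 ± 2765 CPM (-2.50 ± 0.68, adjusted p = 0.1003) and did not pass. Markers of other cell types were present as well. The 17 luminal epithelial genes listed for comparison summed to 35581 to 52143 CPM in the mPGES-1 KO-labelled libraries and 7172 to 13268 CPM in the WT-labelled ones, and the 13 pericyte genes to 248 to 518 CPM and 3618 to 9247 CPM. Of the 13 pericyte genes, 9 fell and 0 rose in edgeR, and 1 had a positive and 12 a negative log2 fold change. The 13 leukocyte genes summed to 1544 to 2813 CPM and 498 to 1123 CPM, and the 11 fibroblast genes to 6374 to 17776 CPM and 9127 to 27106 CPM, for the mPGES-1 KO and WT labels. Single genes weighed on 2 of these sums. Csn3, a milk protein gene that did not pass (edgeR adjusted p = 0.0667), made up 22556 ± 8435 and 5685 ± 2554 CPM of the luminal sums under the labels mPGES-1 KO and WT. Cd14 made up 1470 ± 176 and 459 ± 149 CPM of the leukocyte sums. None of these luminal or pericyte genes was at 0 in any library. In bulk samples, fewer cells of a type and less RNA per cell cannot be told apart.

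**Figure D1:**
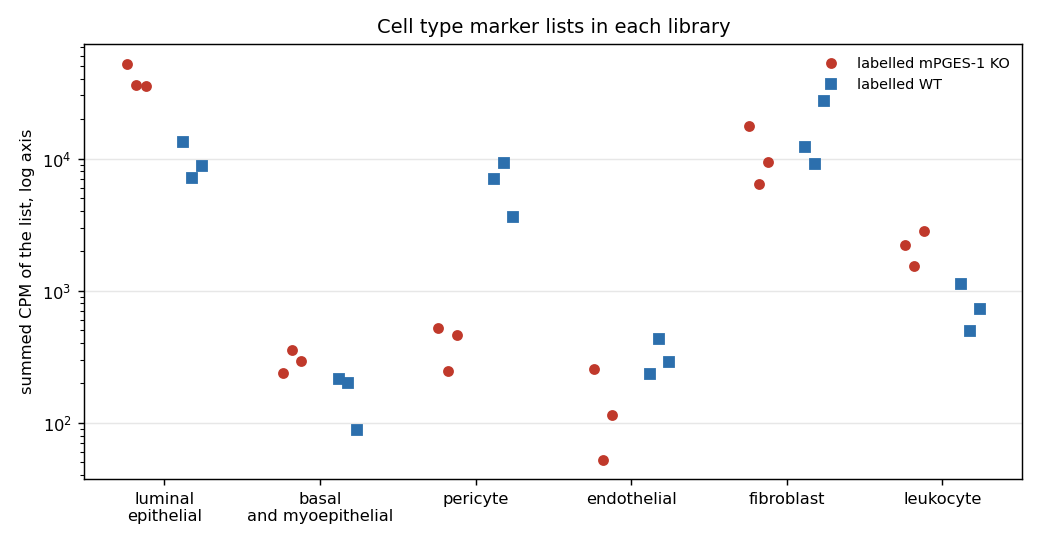
Summed CPM of 6 lists of cell type markers (log axis) in each library, with mPGES-1 KO-labelled libraries in red circles and the WT-labelled ones in blue squares. The luminal sums of the mPGES-1 KO-labelled libraries all lie above the WT-labelled ones, and their pericyte sums all lie below. Csn3 alone makes up a large part of the luminal sums, and Cd14 of the leukocyte sums.

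SOX proteins bind DNA through an HMG box, which bends the minor groove, and are known for setting cell lineages such as cartilage, neural crest and endothelium. KLF proteins bind GC-rich and CACCC sequences through zinc fingers near the carboxyl end, and many of them are induced quickly by growth factors, TGF-beta, stress or blood flow. ETS proteins bind a GGAA core through a winged helix, and they include epithelium-specific members (Ehf, Elf3, Spdef), endothelial and blood members (Fli1, Erg) and targets of RAS and ERK signalling (Ets1, Ets2). In the mammary gland Sox9, Sox10, Ehf, Elf3 and Klf5 are known chiefly from the epithelium.

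Of the 38 members tested, 7 rose in the mPGES-1 KO-labelled libraries and 0 fell. These were Sox9, Klf5, Klf10, Ehf, Elf3, Ets2 and Elf1, with log2 fold changes from 1.47 to 2.73. That is 18.4% of the members tested, where 2.76% of all tested genes were called, 1.2% higher and 1.56% lower. The members were chosen with earlier results of these data known, so these shares, and those below, are no test of the families. At an unadjusted p under 0.05, 10 members were higher and 5 lower in edgeR, or 39.5% of the members against 19.1% of all tested genes (1416 higher and 1741 lower). DESeq2 called 9 members higher and 4 lower, and limma-voom 9 and 5, where they called 14.2% and 11.8% of all genes. An adjusted p under 0.1 called 6.73% of all genes and 11 members. The 7 calls stood with DESeq2 size factors (2.7% of all genes called), library totals (2.69%), no filter (2.46%) and a filter on 1 CPM (4.11%). The groups did not overlap in 14 members, 10 with all mPGES-1 KO-labelled libraries above and 4 with all of them below, or 36.8% of those tested against 27.9% of all tested genes (12.2% above and 15.7% below). The median log2 fold change was 0.25 for the 38 members and -0.04 for all tested genes. By family, 1 of 12 SOX, 2 of 15 KLF and 4 of 11 ETS members rose. Of the 10 tested ETS genes listed outside the members, 0 rose and 1 fell. Leaving out 1 library moved the count of 7 to 4 without mPGES-1 KO replicate 1 or without WT replicate 3, and to 0 without mPGES-1 KO replicate 2, mPGES-1 KO replicate 3 or WT replicate 2. In those 3 fits 13, 13 and 14 members had an unadjusted p under 0.05 (31.7%, 31.7% and 35.9% of the members fitted), as did 14.5%, 16.7% and 13.6% of all genes fitted. Without WT replicate 1 the count was 7. The share of all genes called was 0.903% without mPGES-1 KO replicate 1, 3.19% without WT replicate 1, 0.858% without WT replicate 3, 0.00577% without WT replicate 2 and 0% in the other 2 fits.

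**Figure D2:**
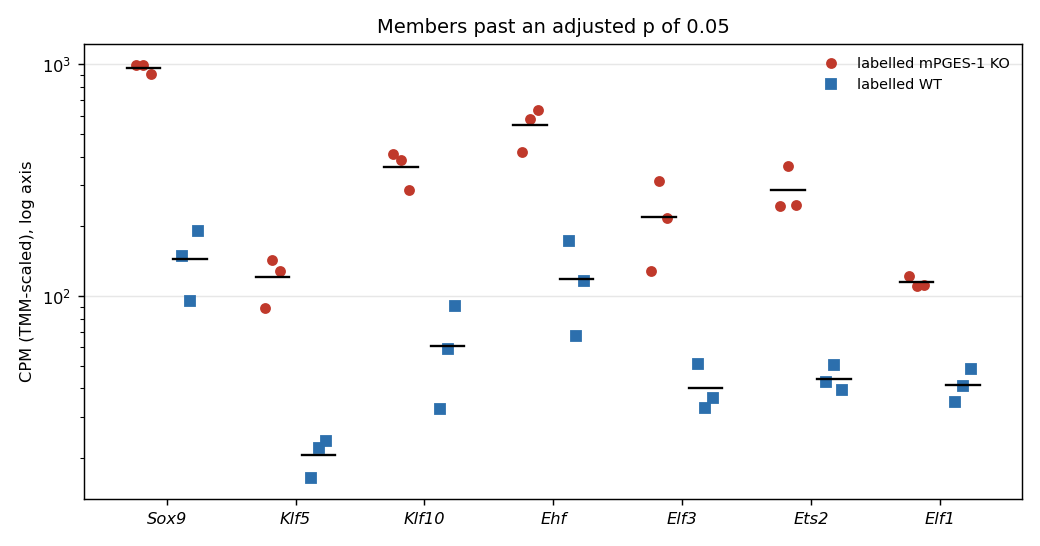
CPM (log axis) of the 7 members that passed, with 1 point per library, the mPGES-1 KO-labelled libraries in red circles left of the WT-labelled ones in blue squares, and the group mean as a bar. In each of the 7 the lowest library labelled mPGES-1 KO lies above the highest labelled WT, by 2.27-fold for Elf1 up to 4.89-fold for Ets2.

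**Figure D3:**
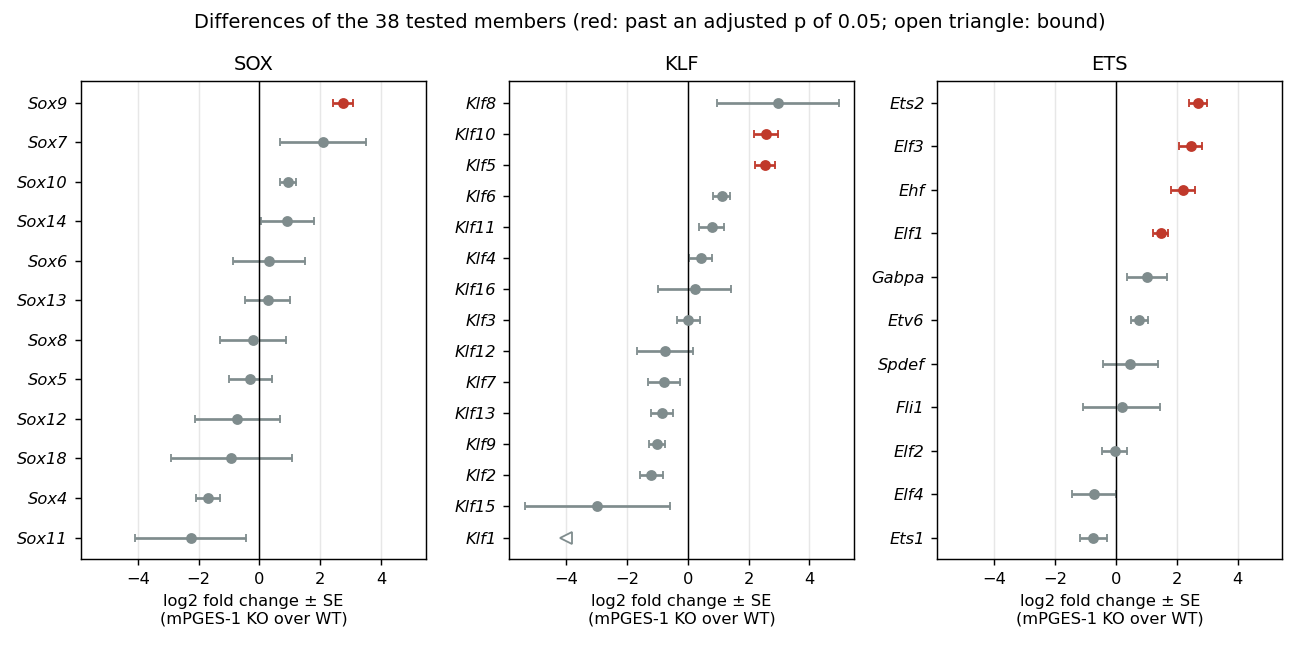
Log2 fold change of mPGES-1 KO over WT with its standard error for the 38 tested members, by family, with the 7 that passed in red. The open triangle marks Klf1, drawn at a bound of -4.02 since its mPGES-1 KO-labelled libraries had no count.

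Sox9, the SOX factor of cartilage and of several epithelial progenitors, rose to 988, 996 and 905 CPM in the mPGES-1 KO-labelled libraries, against 148, 95.3 and 191 CPM in the WT-labelled ones. Its mean was 963 ± 50.3 CPM under the mPGES-1 KO label and 145 ± 47.8 CPM under the WT label (SD, n = 3 each), for a log2 fold change of 2.73 ± 0.33 (SE, edgeR adjusted p = 0.0171). The mPGES-1 KO-labelled libraries lay close together, and the lowest of them was 4.75-fold above the highest labelled WT. Sox9 is located at chr11:112782224-112787760 (plus strand) in the GENCODE M21 annotation of GRCm38, and shares no exonic base with another gene. The call was lost without mPGES-1 KO replicate 2 (adjusted p = 0.0881), with mPGES-1 KO replicate 3 left out (0.0658) and without WT replicate 2 (0.0615). In these 3 fits 0, 0 and 1 of all genes passed, so the loss there is not particular to Sox9 or to any other gene named here. None of 6 tested genes of cartilage matrix, which Sox9 is known to activate in chondrocytes, passed in edgeR, and 0 had an unadjusted p under 0.05. DESeq2 and limma-voom called 0 of them. Col9a1, a cartilage collagen chain, averaged 48.4 ± 22.3 CPM in the mPGES-1 KO-labelled libraries and 43.2 ± 11.2 CPM in the WT-labelled ones. Of the 6, 2 had a positive and 4 a negative log2 fold change. Under the labels mPGES-1 KO and WT, Col2a1 averaged 0.188 ± 0.226 and 4.57 ± 5.75 CPM (-4.58 ± 2.09). Comp averaged 0.762 ± 0.949 and 4.62 ± 6.72 CPM (-2.60 ± 2.16). At such low levels the lack of a call says little. Acan, Matn1, Matn3 and Hapln1 were not analysed here.

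The other abundant SOX genes did not pass in edgeR. Sox4, a factor of progenitor cells and of many tumours, had 82.8, 173 and 70.0 CPM in the mPGES-1 KO-labelled libraries and 278, 436 and 348 CPM in the WT-labelled ones. Every library labelled mPGES-1 KO lay below every one labelled WT (log2 fold change -1.70 ± 0.40, adjusted p = 0.0691). Of the exonic bases of Sox4, 54.6% are shared with Gm26735 on the opposite strand, and the reads hold no strand, so its value is uncertain. Sox10, a factor of neural crest, glia and mammary epithelium, had 146, 128 and 132 CPM in the mPGES-1 KO-labelled libraries and 87.0, 57.3 and 68.1 CPM in the WT-labelled ones. Its groups did not overlap either (log2 fold change 0.94 ± 0.26, adjusted p = 0.101). DESeq2 called Sox4 lower (adjusted p = 0.00235) and Sox10 higher (adjusted p = 0.0175), within ranges over 13 alternatives of 0.00235 to 0.249 for Sox4 and 0.0175 to 0.297 for Sox10. Beside Sox10, 0 of 5 tested glia genes passed in edgeR, 2 at an unadjusted p under 0.05, while DESeq2 and limma-voom each called 2 higher. Their sum was 101 to 137 CPM in the mPGES-1 KO-labelled libraries and 28.5 to 34.6 CPM in the WT-labelled ones, with Erbb3, a neuregulin receptor that epithelium also makes, at 50.2 ± 13.7 and 10.1 ± 5.34 CPM. None of 7 tested basal and myoepithelial genes passed in edgeR, with 1 at an unadjusted p under 0.05, 1 called by DESeq2 and 0 by limma-voom. Their sum was 237 to 358 CPM in the mPGES-1 KO-labelled libraries and 88.0 to 214 CPM in the WT-labelled ones. Of the 7, 5 had a positive and 2 a negative log2 fold change, and the groups were apart in 0. Itga6, an integrin chain on that list, stood at 126 ± 77.9 and 39.2 ± 10.1 CPM under the labels mPGES-1 KO and WT. The part of either marker list in the Sox10 values was not tested.

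The make-up of the SOX family was compared within each library. Per kb of exon, which allows genes to be compared, Sox9, Sox4 and Sox10 had the highest mean levels of the family over the 6 libraries. Sox9 took 71.6 ± 1.69% of the summed SOX level per kb in the mPGES-1 KO-labelled libraries and 23 ± 7.92% in the WT-labelled ones, while Sox4 took 6.88 ± 3.28% and 48.5 ± 10.9% (SD, n = 3 each). The ratio of Sox9 to Sox4 per kb was 13.8, 6.68 and 15.0 in the mPGES-1 KO-labelled libraries and 0.619, 0.254 and 0.635 in the WT-labelled ones. Sox9 thus had the higher level per kb in each library labelled mPGES-1 KO and Sox4 in each labelled WT. The Sox4 levels, shares and ratios carry the uncertainty of the 54.6% of its exonic bases shared with Gm26735.

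**Figure D4:**
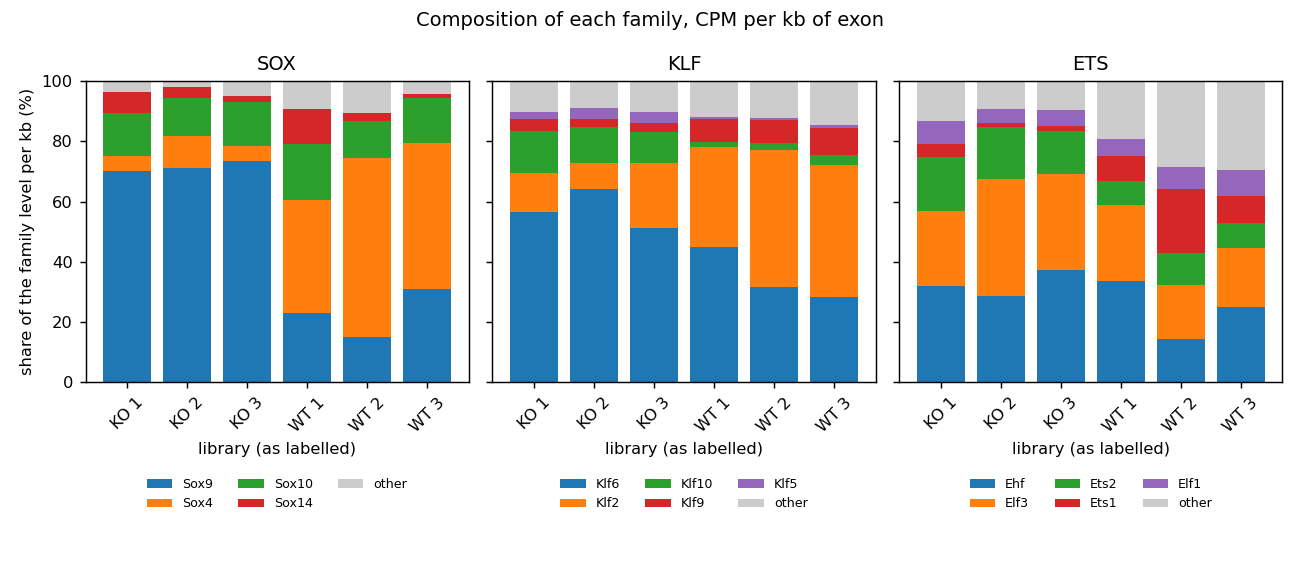
Share (%) of each family's summed level per kb of exon held by its leading members in each library, mPGES-1 KO-labelled libraries first. Sox9 holds the largest SOX share in the 3 mPGES-1 KO-labelled libraries and Sox4, whose level is uncertain since 54.6% of its exonic bases are shared, in the 3 labelled WT, and Klf2 holds less of the KLF level in each library labelled mPGES-1 KO.

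The SoxF genes Sox7, Sox17 and Sox18, which act in endothelium, were low and uneven. Sox18 had 2.16, 0.0419 and 4.76 CPM in the mPGES-1 KO-labelled libraries and 4.65, 8.55 and 0 CPM in the WT-labelled ones (log2 fold change -0.92 ± 2.00, adjusted p = 0.867). Sox7 had 4.75, 0.587 and 6.71 CPM, against 0.137, 1.28 and 1.43 CPM in the WT-labelled libraries (2.08 ± 1.41, adjusted p = 0.496). Sox17, which was not tested, had counts only in mPGES-1 KO replicate 1, at 3.04 CPM, and in WT replicate 2, at 3.45 CPM. A count of 0 allows up to 3 counts, which stood for 0.0683 to 0.126 CPM in these libraries, by counting error only. Fli1, an ETS factor of endothelium and blood, had 4.46, 0.880 and 14.8 CPM in the mPGES-1 KO-labelled libraries and 0.592, 6.84 and 10.2 CPM in the WT-labelled ones (0.19 ± 1.27, adjusted p = 0.961), and its groups overlapped too. The 15 endothelial genes summed to 52.6 to 254 CPM in the mPGES-1 KO-labelled libraries and 232 to 429 CPM in the WT-labelled ones. Of 14 tested, 0 passed in edgeR, 3 had an unadjusted p under 0.05, all lower, and DESeq2 and limma-voom each called 3 lower. Pecam1, an endothelial adhesion molecule, had 17.7, 3.69 and 17.5 CPM, against 0.296, 6.77 and 0.357 CPM in the WT-labelled libraries, and Cdh5, the endothelial cadherin, had no count in WT replicate 3. Their log2 fold changes were 2.39 and 1.92, while those of Eng, a TGF-beta coreceptor, Plvap, a protein of endothelial diaphragms, Thbd, thrombomodulin, and Emcn, endomucin, were -2.39, -1.45, -0.65 and -3.47. Tie1, an endothelial receptor kinase, had 0, 0 and 0.0283 CPM in the mPGES-1 KO-labelled libraries and 1.23, 1.36 and 3.40 CPM in the WT-labelled ones. Of the 14 tested, 7 had a positive and 7 a negative log2 fold change. The direction for Sox18 was reversed without WT replicate 2 (0.045), and that for Fli1 without mPGES-1 KO replicate 3 (-1.13) and without WT replicate 1 (-0.33).

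The remaining SOX members had overlapping groups. Sox11, a SoxC relative of Sox4, had 0.0366, 2.35 and 0.255 CPM in the mPGES-1 KO-labelled libraries and 9.38, 3.12 and 0.165 CPM in the WT-labelled ones (log2 fold change -2.26 ± 1.83, adjusted p = 0.576). Sox14, a repressor of the SoxB2 group, had 51.2, 26.1 and 14.2 CPM, against 36.6, 8.60 and 3.49 CPM in the WT-labelled libraries (0.91 ± 0.87, adjusted p = 0.643). In both genes, a single library of a group was several times another of the same group. Sox5, Sox6 and Sox13, which lack an activation domain of their own, and Sox8 and Sox12 had log2 fold changes between -0.73 and 0.30. Sox15 reached 3.17 CPM in mPGES-1 KO replicate 3 and 2.60 CPM in WT replicate 1. Sox30, known from the testis, had at most 0.0838 CPM in any library labelled mPGES-1 KO and 1.21 CPM in any labelled WT.

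Klf5 and Klf10 rose among the KLF genes. Klf5, a factor of proliferating epithelia, reached 89.1, 144 and 128 CPM in the mPGES-1 KO-labelled libraries, against 16.4, 22.1 and 23.7 CPM in the WT-labelled ones. Its means were 120.3 ± 28.1 and 20.7 ± 3.84 CPM (log2 fold change 2.54 ± 0.32, edgeR adjusted p = 0.0171), and the groups stood 3.76-fold apart at their nearest libraries. Klf10, first described as an early gene of TGF-beta, reached 412, 387 and 288 CPM, against 32.5, 59.2 and 91.0 CPM in the WT-labelled libraries. That is 362 ± 65.6 and 60.9 ± 29.3 CPM (log2 fold change 2.57 ± 0.41, adjusted p = 0.0280). Neither group of libraries overlapped the other in these genes, and neither gene shares exonic bases with another. Klf5 is located at chr14:99298691-99315036 (plus strand), and Klf10 at chr15:38291463-38300706 (minus strand). The Klf5 call was lost without mPGES-1 KO replicate 2 (adjusted p = 0.0921), mPGES-1 KO replicate 3 (0.0677) and WT replicate 2 (0.0793). Klf10 lost its call without those libraries (0.106, 0.0748 and 0.117) and without mPGES-1 KO replicate 1 (0.0632).

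Klf6 and Klf2 had the highest levels per kb of the family over the 6 libraries, and neither passed in edgeR. Klf6, an early response gene of injured tissue, had 1743, 2197 and 1501 CPM in the mPGES-1 KO-labelled libraries and 924 (WT replicate 1), 829 and 766 CPM in the WT-labelled ones (log2 fold change 1.11 ± 0.28, adjusted p = 0.0780). Klf2, which endothelial cells induce under flow, had 169, 125 and 266 CPM in the mPGES-1 KO-labelled libraries and 287, 500.0 and 494 CPM in the WT-labelled ones (-1.19 ± 0.37, adjusted p = 0.131). Klf9, a factor that glucocorticoid and thyroid hormone induce, had 127, 103 and 95.6 CPM, against 175, 214 and 266 CPM in the WT-labelled libraries (-1.01 ± 0.27, adjusted p = 0.0912). In none of these genes did the groups overlap, though mPGES-1 KO replicate 3 came within 0.930-fold of WT replicate 1 for Klf2. DESeq2 called Klf6 higher (adjusted p = 0.00120) and Klf2 and Klf9 lower (0.0368 and 0.0256). Over 13 alternatives the adjusted p ran from 0.00120 to 0.249 for Klf6, 0.0176 to 0.355 for Klf2 and 0.0236 to 0.284 for Klf9. The part of the pericyte list in the values of Klf2, Klf9 and Sox4 was not tested. Klf1, the factor of red cell precursors, had no count in the mPGES-1 KO-labelled libraries and 2.07, 0.906 and 2.22 CPM in the WT-labelled ones, at least 16.2-fold lower with each empty library set at 3 counts. Its adjusted p was 0.0868 in edgeR, with a range of 0.00622 to 0.26 over 12 alternatives.

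**Figure D5:**
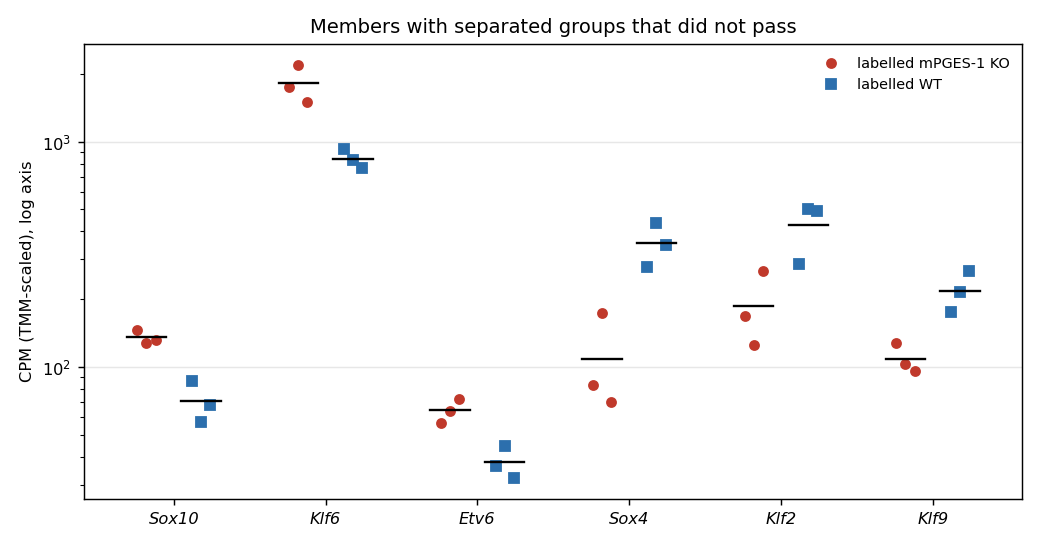
CPM (log axis) of 6 members whose groups did not overlap but which did not pass in edgeR, with 1 point per library, mPGES-1 KO-labelled libraries in red circles left of the WT-labelled ones in blue squares, and group means as bars. Sox10, Klf6 and Etv6 are higher and Sox4, Klf2 and Klf9 lower in the mPGES-1 KO-labelled libraries, and Klf1 is left out because it has libraries at 0.

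Klf6 took 57.3 ± 6.49% of the summed KLF level per kb in the mPGES-1 KO-labelled libraries and 35.0 ± 8.75% in the WT-labelled ones, Klf2 took 14.4 ± 6.6% and 40.7 ± 6.63%, and Klf10 took 12.1 ± 1.86% and 2.53 ± 0.951% (SD, n = 3 each). The ratio of Klf6 to Klf2 per kb was 4.34, 7.40 and 2.37 in the mPGES-1 KO-labelled libraries and 1.36, 0.697 and 0.653 in the WT-labelled ones. Klf2 exceeded Klf6 per kb in WT replicates 2 and 3 alone. The other 9 KLF genes had overlapping groups, with log2 fold changes from -2.98 for Klf15 to 2.96 for Klf8 and adjusted p from 0.252 to 0.985. Klf4, the pluripotency and skin barrier factor, averaged 99.7 ± 7.41 CPM in the mPGES-1 KO-labelled libraries and 73.9 ± 38.9 CPM in the WT-labelled ones (log2 fold change 0.43 ± 0.38, adjusted p = 0.607). Klf15, a glucocorticoid target in metabolism, had 3.95, 0 and 0 CPM, against 0.0683, 17.0 and 14.0 CPM in the WT-labelled libraries (adjusted p = 0.572). Klf8, a repressor that recruits CtBP, had 2.78, 0.0419 and 12.5 CPM, against 0.0228, 1.61 and 0.329 CPM (adjusted p = 0.493). Both were uneven within each group. Klf13, a repressor related to Klf9, averaged 80.8 ± 13.2 CPM in the mPGES-1 KO-labelled libraries and 147 ± 58.9 CPM in the WT-labelled ones (-0.86 ± 0.36, adjusted p = 0.252). Klf7 shares 39.4% of its exonic bases with genes on the opposite strand, so its log2 fold change of -0.78 ± 0.52 is uncertain. Klf11, a repressor that TGF-beta also induces, Klf16, and the CtBP-binding repressors Klf3 and Klf12 had log2 fold changes of 0.78, 0.22, 0.02 and -0.74.

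Several KLF genes are early response genes, so a list of 17 such genes, 16 of them tested, was set beside them. In edgeR 3 rose and 0 fell, with 4 higher and 3 lower at an unadjusted p under 0.05, and 3 called higher and 3 lower by DESeq2 and by limma-voom. The list sum was 27641 to 32827 CPM in the mPGES-1 KO-labelled libraries and 24749 to 35671 CPM in the WT-labelled ones, ranges that overlapped. The 3 that rose were Atf3, a stress-induced factor (4027 ± 306 and 531 ± 201 CPM in the mPGES-1 KO-labelled and WT-labelled libraries), Ier3, an NF-kB target (4286 ± 1192 and 683 ± 169.7 CPM), and Fosl1, an AP-1 subunit (126 ± 33.2 and 5.84 ± 4.85 CPM). All 3 lost the call without mPGES-1 KO replicate 2 (adjusted p = 0.0881 for Atf3, 0.0916 for Ier3 and 0.102 for Fosl1), mPGES-1 KO replicate 3 (0.0677, 0.0658 and 0.0677) and WT replicate 2 (0.0587, 0.0881 and 0.0956), as did Ier3 without WT replicate 3 (0.0563) and Fosl1 without mPGES-1 KO replicate 1 (0.0586). Fos, the classic early gene, was at 6006 ± 1349 and 6378 ± 853 CPM (log2 fold change -0.09 ± 0.30). The part of tissue handling in the KLF values was not tested.

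Ets2, Elf3, Ehf and Elf1 rose among the ETS genes. Ets2, a target of ERK phosphorylation, reached 246, 363 and 248 CPM in the mPGES-1 KO-labelled libraries, against 42.5, 50.3 and 39.1 CPM in the WT-labelled ones. Its means were 286 ± 66.8 and 44 ± 5.71 CPM, and it had the smallest adjusted p of the 38 members (log2 fold change 2.70 ± 0.28, edgeR adjusted p = 0.0143). Its partner in the family, Ets1, did not pass, with 79.9, 43.0 and 43.0 CPM in the mPGES-1 KO-labelled libraries and 62.6, 151 and 65.3 CPM in the WT-labelled ones (-0.75 ± 0.44, adjusted p = 0.430). The groups of Ets1 overlapped through mPGES-1 KO replicate 1. Per kb, the ratio of Ets2 to Ets1 was 4.51, 12.4 and 8.47 in the mPGES-1 KO-labelled libraries and 0.996, 0.488 and 0.879 in the WT-labelled ones, so Ets2 was the higher gene per kb in the mPGES-1 KO-labelled libraries and not in the WT-labelled ones. Ets2 is located at chr16:95702075-95721051 (plus strand). Its call was lost without mPGES-1 KO replicate 2 (adjusted p = 0.0881), mPGES-1 KO replicate 3 (0.0630) and WT replicate 2 (0.0573).

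Elf3 and Ehf, 2 epithelium-specific ETS factors, rose together with luminal markers. Ehf reached 417, 582 and 637 CPM in the mPGES-1 KO-labelled libraries, against 172, 67.5 and 116 CPM in the WT-labelled ones (means 545 ± 114 and 118 ± 52.4 CPM, log2 fold change 2.20 ± 0.39, edgeR adjusted p = 0.0336). Elf3 reached 128, 313 and 216 CPM, against 50.8, 32.9 and 36.5 CPM in the WT-labelled libraries (means 219 ± 92.3 and 40.1 ± 9.52 CPM, 2.45 ± 0.39, adjusted p = 0.0275). Both were uneven among the mPGES-1 KO-labelled libraries, with replicate 1 the lowest in each. Spdef, the third such factor and a regulator of secretory cells, did not pass, with 13.1, 17.5 and 12.4 CPM in the mPGES-1 KO-labelled libraries and 0.956, 13 and 17.2 CPM in the WT-labelled ones (0.46 ± 0.91, adjusted p = 0.848). Its sign turned without WT replicate 1, the lowest library (-0.044). In the same libraries all 17 luminal epithelial genes tested had a positive log2 fold change, 6 rose and 0 fell in edgeR, with 16 higher and 0 lower at an unadjusted p under 0.05, and DESeq2 and limma-voom called 14 and 13 higher and 0 lower. Epcam, an epithelial adhesion molecule, was at 4443 ± 615 and 484 ± 147 CPM, Krt8, a luminal keratin, at 2754 ± 642 and 493 ± 83.9 CPM, and Cdh1, E-cadherin, at 203 ± 28.9 and 42.3 ± 15.8 CPM in the mPGES-1 KO-labelled and WT-labelled libraries. These 3 genes also lost their calls without mPGES-1 KO replicate 2 (adjusted p = 0.0881, 0.0881 and 0.102), mPGES-1 KO replicate 3 (0.0630, 0.0630 and 0.0749) and WT replicate 2 (0.0573, 0.0869 and 0.114), and Cdh1 without mPGES-1 KO replicate 1 (0.0507) and WT replicate 3 (0.0603). The part of epithelial RNA in the values of Ehf, Elf3, Klf5, Sox9, Klf10, Ets2, Elf1 and Sox10 was not tested. Ehf is located at chr2:103263433-103303278 (minus strand), and Elf3 at chr1:135253575-135258568 (minus strand). Elf3 shares 7.31% of its exonic bases with Gm26642 on the opposite strand. The calls of Ehf and Elf3 were lost without mPGES-1 KO replicate 2 (adjusted p = 0.119 and 0.102), mPGES-1 KO replicate 3 (0.103 and 0.0846), WT replicate 2 (0.114 and 0.117) and WT replicate 3 (0.103 and 0.0820), and that of Ehf also without mPGES-1 KO replicate 1 (0.0613).

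Elf1, a widely expressed ETS activator, showed the smallest rise of the 7. It reached 123, 110.0 and 112 CPM in the mPGES-1 KO-labelled libraries, against 35.0, 40.9 and 48.4 CPM in the WT-labelled ones (means 115 ± 6.88 and 41.4 ± 6.71 CPM, log2 fold change 1.47 ± 0.26, edgeR adjusted p = 0.0314). The libraries lay close together within each group. Elf1 is located at chr14:79481194-79582494 (plus strand) and shares 4.85% of its exonic bases with Wbp4 on the opposite strand. Its call was lost without mPGES-1 KO replicate 1 (adjusted p = 0.0782), 2 (0.119) and 3 (0.0940), and without WT replicates 2 (0.137) and 3 (0.0738). Its relatives Elf2 and Elf4 did not pass, at 37.7 ± 6.92 and 5.93 ± 2.89 CPM in the mPGES-1 KO-labelled libraries and 39.0 ± 17.1 and 9.74 ± 2.78 CPM in the WT-labelled ones. Etv6, a repressor needed for blood stem cells, had 56.5, 63.6 and 72.4 CPM in the mPGES-1 KO-labelled libraries and 36.3, 44.7 and 32.1 CPM in the WT-labelled ones. Its groups did not overlap, yet it did not pass (0.77 ± 0.29, adjusted p = 0.195). Gabpa, an activator of nuclear genes for mitochondrial proteins, had 59.1, 53.0 and 17.6 CPM, against 38.3, 17.6 and 8.04 CPM in the WT-labelled libraries (1.02 ± 0.66, adjusted p = 0.473), and its groups overlapped.

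Outside the 41 members, 14 further ETS genes were listed, 10 of which were tested. In edgeR Etv4, a PEA3-group factor that ERK signalling induces, fell and none rose. It had 2.67, 3.02 and 1.16 CPM in the mPGES-1 KO-labelled libraries, against 36.3, 28.9 and 18.2 CPM in the WT-labelled ones (log2 fold change -3.61 ± 0.61, adjusted p = 0.0296). Its call was lost when any 1 library was left out, at an adjusted p from 0.0544 without WT replicate 1 to 0.137 without WT replicate 2. At an unadjusted p under 0.05, 2 of the 10 were higher and 2 lower, while DESeq2 called 2 higher and 1 lower and limma-voom 1 higher and 1 lower. Etv1, another PEA3-group factor, averaged 98.5 ± 30.6 and 45 ± 15.1 CPM in the mPGES-1 KO-labelled and WT-labelled libraries (adjusted p = 0.154), and Elf5, the alveolar ETS factor of the mammary gland, 67.3 ± 20.7 and 42.7 ± 17.2 CPM (adjusted p = 0.456). Of the SP factors, zinc-finger relatives of the KLF family that bind GC boxes, 4 were tested and 0 passed in edgeR, with 0 at an unadjusted p under 0.05 and 0 called by DESeq2 or limma-voom. Their sum was 104 to 176 CPM in the mPGES-1 KO-labelled libraries and 89.0 to 150.1 CPM in the WT-labelled ones.

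Sequence before the start sites is shown because these families bind promoters and members of all 3 families rose. RefSeq promoters of GRCm38.p6, the assembly that mm10 also names, were matched for 30 of the 41 members, among them Elf1, Elf3 and Ets2 of the 7 that rose. The 250 bases before each start were searched on both strands for 6 short motifs. The ETS motif was searched as CCGGAA, a longer form than the GGAA core, which was not searched for by itself. The motif of KLF proteins was searched as CCACCC, and the GC box shared by KLF and SP factors, which can overlap it, as CCGCCC. The motifs of SOX proteins were written ACAAAG in one form and, in another form, ACAATG. The last was the AP-1 motif, TGANTCA. The lines below give the part of 3 promoters outside every annotated exon, 5′ to 3′ on the strand of the gene, with any motif in capitals. They are the second start of Elf1 (chr14:79515424-79515673, plus strand), Elf3 (chr1:135258569-135258722, minus strand) and Klf6 (chr13:5861239-5861481, plus strand), the last shown as the KLF gene with the highest level.
Elf1: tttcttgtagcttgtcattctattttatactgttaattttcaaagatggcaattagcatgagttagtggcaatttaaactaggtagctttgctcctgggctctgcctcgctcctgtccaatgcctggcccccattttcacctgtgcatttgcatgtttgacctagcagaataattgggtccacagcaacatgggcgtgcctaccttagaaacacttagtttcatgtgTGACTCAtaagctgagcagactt
Elf3: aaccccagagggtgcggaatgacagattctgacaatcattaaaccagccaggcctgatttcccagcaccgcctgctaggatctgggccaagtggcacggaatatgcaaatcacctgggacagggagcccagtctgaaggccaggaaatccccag
Klf6: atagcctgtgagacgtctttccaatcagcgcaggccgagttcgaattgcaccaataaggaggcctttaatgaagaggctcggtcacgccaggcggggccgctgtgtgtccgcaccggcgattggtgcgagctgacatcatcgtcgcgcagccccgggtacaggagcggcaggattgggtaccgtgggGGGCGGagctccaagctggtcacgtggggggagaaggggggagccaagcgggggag
The Elf1 stretch held 1 AP-1 motif, the Klf6 stretch 1 GC box and the Elf3 stretch none of the 6. These stretches leave out exonic bases and the first start of Elf1. Over the full 250 bases of the 3 risen members with a promoter, CCACCC was found in 2 (Elf1 and Elf3). CCGCCC was found in 2 (Elf1 and Ets2), TGANTCA in 1 (Elf1) and the other motifs in 0. Over the 250 bases of the 30 members, CCACCC was found in 12 (40.0%) and CCGCCC in 20 (66.7%), against 37.2% and 61.3% of the 11300 tested genes with a promoter. CCGGAA was found in 2 members (6.67%, against 23.5% of tested genes), TGANTCA in 4 (13.3% against 5.94%), ACAAAG in 1 (3.33% against 14.7%) and ACAATG in 3 (against 7.73%). A match is a description of these letters and not a binding site.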

How the data were processed

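RNA-seq counts of 6 libraries were analysed, 3 labelled mPGES-1 KO and 3 labelled WT. Per the labels' protocols, cDNA was made with an ultra-low input kit, amplified by 16 PCR cycles and sequenced as single reads of 75 cycles, which marks neither strand nor molecule, so floors cover counting error only. The authors deposited unnormalized read counts, 1 row per gene symbol. FastQC 0.11.5, STAR and mm10 are listed in the submitters' processing notes. The sources used here give neither the counting program nor its annotation.

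The test was that of edgeR 4.0.16 in R 4.3.3 (filterByExpr by genotype, TMM, robust glmQLFit and glmQLFTest, two-sided, no covariate) over all 6 libraries, with Benjamini-Hochberg adjustment over 16543 genes and calls at an adjusted p under 0.05. The SE is the absolute log2 fold change over the square root of F. CPM are counts over TMM-scaled totals, and levels per kb divide by GENCODE M21 exonic bases. The common biological coefficient of variation was 0.818. Counts were simulated for the 16543 genes from the means and spread of these libraries, and 15562 passed the filter again. The changed genes were drawn from those with a mean above 50 counts, so members with few counts are not covered. The test recovered 0 of 50 genes at a log2 fold of 1, 13 at 2, 23 at 4 and 37 at 6, with 4 false calls. Alternatives were DESeq2 1.42.0, limma 3.58.1 (voom with quality weights), other scalings and filters, a block for the replicate number, 6 fits with 1 library left out each, and an adjusted p under 0.1.

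The members and the gene lists were chosen with earlier results of these data known. Described with per-library values were members past the threshold, the 4 highest by mean CPM per family, and the 3 largest log2 fold changes in each direction per family at a mean of at least 1 CPM. From each other list at most 3 genes were eligible by rule, called ones first and then by mean CPM, and not all of them are printed. Ptges, Epcam, Krt8, Rgs5, Pecam1, Ptprc and Pdgfra were eligible as checks. The other members, and Fos, Cdh5, Emcn, Tie1, Cdh1, Csn3, Col1a1, Col2a1 and Comp, are named to account for the families or as markers, after their values were seen.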

Additional observations from a re-analysis of the deposited data

How the results depend on the processing

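The 7 calls stayed under DESeq2 size factors, library totals, no filter and 1 CPM required in 3 or more libraries. Over 91 fits of these 7 genes under 13 alternatives, 34 lost the call and 0 changed direction. DESeq2, limma-voom and an adjusted p under 0.1 called 2235, 1944 and 1113 of all tested genes, 13, 14 and 11 members, 3, 3 and 2 SOX members, and 6, 7 and 5 KLF members. The cause was not tested. With the replicate number as a block, edgeR called 0 genes, 0 members and 0 in each family, with 2716 genes and 15 members at an unadjusted p under 0.05, and the Ptges log2 fold change was 2.53 (adjusted p = 0.0803). The labels state no pairing, so whether the numbers pair the samples is not known. Same-numbered libraries correlated at -0.0846, 0.0307 and -0.000523 in their deviations from the group means. The best match of mPGES-1 KO replicate 1 was WT replicate 3 (0.0847), and that of mPGES-1 KO replicates 2 and 3 was WT replicate 1 (0.0599 and 0.0306). Among the WT-labelled libraries, replicate 2 alone correlated best with its own number. Such correlations over all tested genes cannot settle the pairing, since a shared batch that touches few genes would not show in them. With 1 library left out, calls ran from 0 to 568 over all genes, 0 to 7 for members, 0 to 1 for SOX, 0 to 2 for KLF and 0 to 4 for ETS, and the log2 fold change of Ptges from 2.34 to 2.71. Such fits use fewer libraries and test 17322 to 17816 genes.

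Directions turned in 13 members, all with an adjusted p of at least 0.493. With limma-voom Sox13 turned to -0.27, Sox8 to 0.80, Klf3 to -0.22, Klf8 to -0.21 and Fli1 to -1.11. With the replicate block Sox5 turned to 0.048, Sox8 to 0.19 and Elf2 to 0.044. Library totals gave -0.020 for Klf3, and DESeq2 size factors and the DESeq2 test gave 0.0010 and 0.0020 for Elf2. With 1 library left out, ranges that crossed 0 were -1.26 to 0.22 for Sox12, -0.12 to 0.65 for Sox13, -1.99 to 0.045 for Sox18, -0.78 to 0.074 for Sox5, -0.17 to 2.41 for Sox6, -0.66 to 1.23 for Sox8, -1.22 to 0.11 for Klf12, -0.30 to 0.84 for Klf16, -0.23 to 0.51 for Klf3, -0.32 to 0.28 for Elf2, -1.13 to 0.85 for Fli1 and -0.044 to 1.03 for Spdef. No gene with a log2 fold change under 1.13 in size was called in edgeR, and totals of 23013498 to 43648450 counts put 3 counts at 0.0683 to 0.126 CPM.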
